A study of Homo sapiens with 12 samples.

Results

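Small nucleolar RNA genes were measured in A549, PC14 and PC14CDDP cells, human lung adenocarcinoma cell lines, after supply or block of miR-197. The 297 members were chosen by name and by measured signal: the array's gene name had to begin with SNORA, SNORD or SCARNA and a number, and at least 1 probe had to exceed background clearly (the scanner's well-above-background mark) on 3 or more of the 12 arrays. They comprised 102 box H/ACA genes (SNORA), 173 box C/D genes (SNORD) and 22 small Cajal body RNA genes (scaRNA), out of 24860 genes that passed the same filter. Of 321 such names on the array 24 were not kept, and 254 of the 297 members were well above background on all 12 arrays.

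Each line was transfected at 25 nM with premiR-197 (a precursor-type molecule that supplies miR-197), with AllStar-NC, its negative control, with LNA-miR-197 (a locked nucleic acid oligonucleotide that blocks miR-197) or with LNA-miR-NC, its negative control. PC14CDDP is a line named for cisplatin whose parental line is PC14, and all 3 lines received an oligonucleotide on every array, so no array shows untransfected cells. Every line and transfection had 1 array, so the 3 lines served as replicates of a transfection, and the 4 arrays of a line were transfections of 1 line rather than independent lines. The A549 arrays lay on 1 slide and the PC14 and PC14CDDP arrays on another, so slide and line cannot be told apart for A549, and the 4 transfections followed the same order along the slide in every line, so place in that order and transfection cannot be told apart.

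Small nucleolar RNAs guide the chemical modification of other RNAs. Box C/D RNAs carry short conserved boxes named C and D, bind fibrillarin and direct 2′-O-methylation, mostly of ribosomal RNA. Box H/ACA RNAs fold into hairpins, bind dyskerin and direct pseudouridylation, and scaRNAs work in Cajal bodies on the spliceosomal small nuclear RNAs. Most human members lie in introns of host genes, many of them ribosomal protein genes or noncoding SNHG genes, and are cut out of the spliced intron. A probe of 60 bases reads any labelled RNA that holds those bases, the mature RNA or a longer transcript of the intron, and how much of the signal came from each was not tested. The labelling kit named by the submitters primes from poly(A) tails, which mature members lack.

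The probes below are shown because they measured the members on which the transfection results turn, together with SNORD44, whose RNA (RNU44) the study used as a qRT-PCR control. Coordinates are those of the deposited files on hg19, bases run 5′ to 3′ in the sense of the RNA, and capitals mark TGATGA (C box letters) and CTGA (D box letters) in box C/D probes. A host is here the RefSeq gene of the same strand whose span holds the member, without a test of intron bounds. SNORD84 was read at chr6:31508892-31508951, minus strand, within DDX39B, SNORD69 at chr3:52726769-52726828, plus strand, in GNL3, SNORD53 at chr2:29149938-29149997, plus strand, in WDR43, and SNORD44 at chr1:173835106-173835165, minus strand, in GAS5.
SNORD84: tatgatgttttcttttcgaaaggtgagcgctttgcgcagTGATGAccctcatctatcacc
SNORD69: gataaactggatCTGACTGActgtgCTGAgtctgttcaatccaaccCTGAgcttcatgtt
SNORD53: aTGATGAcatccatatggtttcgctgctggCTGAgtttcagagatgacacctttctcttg
SNORD44: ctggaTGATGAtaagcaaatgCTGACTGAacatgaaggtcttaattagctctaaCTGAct

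The next probes carry no capitals, since box H/ACA RNAs and scaRNAs of this kind are defined by hairpins more than by letters. SNORA63 was read at chr3:186505152-186505211, plus strand, in EIF4A2, SNORA13 at chr5:111497255-111497314, plus strand, in EPB41L4A-AS1, SNORA69 at chrX:118921322-118921381, minus strand, in RPL39, and SCARNA11 at chr12:6690639-6690698, minus strand, in CHD4.
SNORA63: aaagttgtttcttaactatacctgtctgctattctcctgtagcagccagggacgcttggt
SNORA13: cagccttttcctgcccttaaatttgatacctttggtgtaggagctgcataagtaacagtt
SNORA69: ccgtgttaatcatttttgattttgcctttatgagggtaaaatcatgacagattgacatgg
SCARNA11: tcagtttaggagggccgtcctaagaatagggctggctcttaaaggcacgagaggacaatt

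The probe letters were checked against the class names. CTGA was present in 95.4% of the probes of box C/D members (165 of 173), against 19.6% of box H/ACA probes, 11 of 22 scaRNA probes and 29.4% of all 50599 probes on the array. TGATGA was present in 22.0% of box C/D probes, 1.96% of box H/ACA probes, 9.09% of scaRNA probes and 2.89% of all probes. Both motifs were searched in the printed sense only, and the letters CTGATGA hold both, so a probe can count for each. Of the 297 members, 52 were read by a probe that shares a run of at least 20 bases with the probe of another member, so their signals are not independent, and 4 were read by a probe designed on a transcript other than the small RNA itself.

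Levels are given as log2 of the signal minus the log2 of the array's 75th percentile, so that 0 is the 75th percentile, and differences as log2 ratios. On the 12 arrays 55.8% to 63.1% of probes were well above background, the 75th percentile ran from 406 to 477 in units of signal, with 0 saturated probes. Repeat spots of a probe had a median SD of 0.07 to 0.08 on the log2 scale. The epithelial keratins KRT8, KRT18 and KRT19 were well above background on all 12 arrays, whereas CDH1 reached that on 6, EPCAM on 7 and the lung factor NKX2-1 on 8. Of markers of other cells, PDGFRB reached it on 0 arrays and COL3A1 on 1, while PTPRC, CDH5 and COL1A1 reached it on 12, and their part in the results was not tested.

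After premiR-197 a set of box H/ACA RNAs was higher in every line and many scaRNAs were lower, but no member passed the test. limma called 0 of 297 members at an adjusted p under 0.05, where 0.205% of all genes were called. At an unadjusted p under 0.05 were 68 of 297 members and 3943 of 24860 genes. The median log2 ratio was 0.22 over box H/ACA members, 0.12 over box C/D members and -0.40 over scaRNAs, against 0.02 over all genes. At least 1.2-fold higher in all 3 lines were 33 members (11.1%), of which 26 were box H/ACA and 7 box C/D, against 3.68% of all genes. At least 1.2-fold lower in all 3 lines were 11 members (3.70%), 6 of them scaRNAs, against 5.12% of all genes.

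SNORA63, within the translation factor gene EIF4A2, had the largest mean increase. Its level was 0.85 after AllStar-NC and 1.52 after premiR-197 in A549, 2.64 and 4.70 in PC14, and 1.47 and 4.14 in PC14CDDP. The premiR-197 array was the highest of the 4 in every line, and the mean log2 ratio was 1.80 (SE 0.35, adjusted p = 0.0861, limma). The host EIF4A2 had a log2 ratio of 0.06 (SE 0.20). In a fit restricted to probes well above background on all 12 arrays SNORA63 had an adjusted p of 0.0321 (limma). In that fit 13 members were called, all of them box H/ACA and all higher, and the share of all genes called is not given here.

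SNORA1, in TAF1D, stood at -0.37 against 0.09 in A549, 0.72 against 2.73 in PC14, and 0.13 against 2.38 in PC14CDDP, control first. SNORA44, in the noncoding host SNHG12, went from -0.21 to 0.58, from 2.60 to 4.17 and from 0.46 to 2.73 in the same order of lines. SNORA62, in the ribosomal protein gene RPSA, went from 2.26 to 2.97, from 4.04 to 5.46 and from 2.57 to 4.70. For these members the PC14 and PC14CDDP ratios exceeded the A549 ratio, and the adjusted p lay between 0.0954 and 0.109 (limma). SNORA2A, in KANSL2, had log2 ratios of 0.51, 1.65 and 2.09, and its other probe gave the same mean ratio of 1.42.

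The scaRNAs gave the lower end of the comparison. Set against the same AllStar-NC arrays, the control LNA-miR-NC had a scaRNA median of -0.52, beside -0.40 for premiR-197. In A549, PC14 and PC14CDDP the medians were -0.71, -0.31 and -0.47 for LNA-miR-NC and -0.24, -0.64 and -0.30 for premiR-197. A scaRNA decrease against AllStar-NC was thus not particular to premiR-197. SCARNA11, in the chromatin remodeller gene CHD4, stood at -1.52 after AllStar-NC against -1.86 after premiR-197 in A549, at 1.77 against -0.04 in PC14, and at -1.78 against -3.09 in PC14CDDP. SCARNA14, in TIPIN, went from 1.85 to 1.42, from 2.41 to 1.46 and from 0.04 to -1.86. SCARNA8, in HAUS6, had log2 ratios of -0.37, -1.01 and -1.33, and SCARNA4 of -0.27, -1.62 and -0.49. None of these passed the test, with adjusted p between 0.168 and 0.261 (limma). The box H/ACA member SNORA12, in CWF19L1, was lower in all lines as well, with log2 ratios of -0.61, -0.95 and -0.98 (adjusted p = 0.129), and its other probe had a mean ratio of -1.13.

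**Figure D1:**
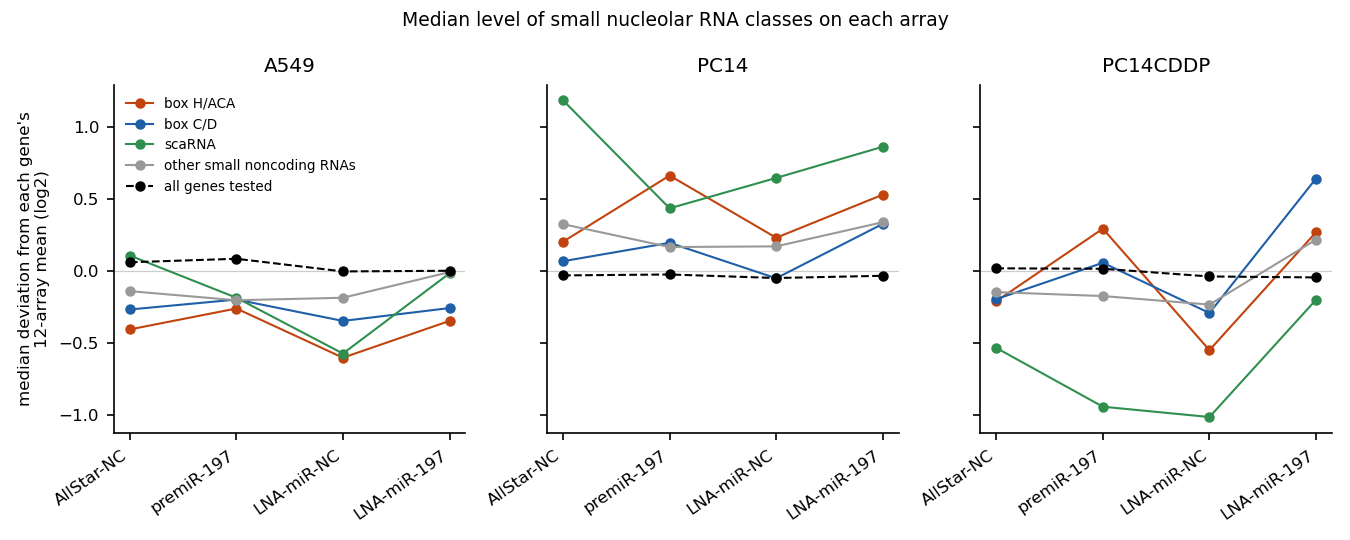
Median deviation of the members of each class from each gene's mean over the 12 arrays (log2, y axis) on each array (x axis, transfection), 1 panel per line; points are single arrays, the grey line is 16 other small noncoding RNAs and the dashed line all 24860 genes. Box C/D members lay at 0.64 on the PC14CDDP LNA-miR-197 array and at -0.29 on the LNA-miR-NC array of that line.

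After LNA-miR-197 members of both classes were higher than after LNA-miR-NC. limma called 31 of 297 members higher (10.4%), 10 box H/ACA, 20 box C/D and 1 scaRNA, where 4.1% of all genes were called higher. It called 0 members lower, where 3.58% of all genes were called lower. At an unadjusted p under 0.05 were 141 of 297 members and 6710 of 24860 genes. The median log2 ratio was 0.46 over all members and 0.00 over all genes. The members' median per line (A549, PC14, PC14CDDP) was 0.18, 0.30 and 0.83, and 224, 231 and 274 of the 297 were above 0.

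At least 1.2-fold higher in all 3 lines were 76 members (25.6%), 34 box H/ACA, 41 box C/D and 1 scaRNA, against 7.47% of all genes. At least 1.2-fold lower in all 3 lines were 0 members, against 7.47% of all genes. The 16 other small noncoding RNAs on the array, such as RNU and RNY genes, had a median log2 ratio of 0.07, with -0.09 in A549, 0.06 in PC14 and 0.40 in PC14CDDP. The 64 replication-dependent histone genes, whose mRNAs also lack poly(A) tails, had a median of -0.06.

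The calls depended on having all 3 lines in the fit. Leaving out A549, PC14 or PC14CDDP left 0 members called by limma, with 162, 85 and 54 members at an unadjusted p under 0.05. A fit without the cell line as a block also left 0. The shares of all genes in these fits are not given here. The ratio of SNORD84, described next, was 3.24 without A549, 3.52 without PC14 and 2.56 without PC14CDDP. Set against AllStar-NC, an alternative added once results were known, 25 members were called higher and 1 lower. In either direction 14.5% of all genes were called there, a larger share for genes than for members. The higher share of calls among members thus did not hold with this control. Of the 25, 17 were among the 31. Both comparisons use the same LNA-miR-197 arrays, so this overlap is no separate support.

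SNORD84, within the RNA helicase gene DDX39B, rose most among the called members. Its level after LNA-miR-NC and LNA-miR-197 was -3.54 and -0.69 in A549, -2.02 and 0.26 in PC14, and -2.35 and 1.85 in PC14CDDP. The AllStar-NC and premiR-197 arrays lay at -3.62 and -3.32 in A549, -2.08 and -1.52 in PC14, and -2.53 and -1.73 in PC14CDDP, so the LNA-miR-197 array stood above the other 3 in every line. The log2 ratio was 3.11 (SE 0.36, adjusted p = 0.0142, limma). DDX39B itself had a log2 ratio of 0.03 (SE 0.11, adjusted p = 0.879). With AllStar-NC as the control the ratio of SNORD84 was 3.21. SNORA63, the member with the largest mean increase after premiR-197, had 1.09 after LNA-miR-197 (SE 0.35, adjusted p = 0.0969, limma).

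SNORD69, in the nucleolar GTPase gene GNL3, stood at -2.03 against -1.40 in A549, at -0.71 against 0.50 in PC14, and at -1.74 against 0.78 in PC14CDDP, control first (log2 ratio 1.45, adjusted p = 0.0421). SNORD53, in WDR43, went from -3.21 to -2.51, from -3.97 to -2.99 and from -4.43 to -2.12 (1.33, adjusted p = 0.0374). SNORA13, in the noncoding host EPB41L4A-AS1, went from -0.38 to 0.73, from 1.94 to 2.52 and from 0.38 to 2.36 (1.22, adjusted p = 0.0339). All of these increases were largest in PC14CDDP. EPB41L4A-AS1 rose with SNORA13, by 1.04 on the log2 scale (SE 0.12, adjusted p = 0.0154, limma), whereas the ratio was 0.34 for GNL3 and 0.04 for WDR43, neither of them called.

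SNORA69, in the ribosomal protein gene RPL39, had log2 ratios of 0.84, 1.26 and 1.37 in A549, PC14 and PC14CDDP (adjusted p = 0.0154). SNORD67, in CKAP5, had 0.93, 0.97 and 1.65 (adjusted p = 0.0162), and SNORD98, in CCAR1, had 0.75, 1.06 and 1.36 (adjusted p = 0.0218). These were the most even of the larger increases across lines. SNORD1B, SNORD9, SCARNA17, SNORD45A and SNORD103A rose by at least 0.94 on the log2 scale, and the other 19 called members rose by 0.50 to 0.93. SNORD9 was well above background on 10 of 12 arrays.

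The 31 called members lay in 27 host genes. In SNHG17 were SNORA71B, SNORA71C and SNORA71D, in SNHG16 SNORD1B and SNORD1C, and in RABGGTB SNORD45A and SNORD45B. Of the 31, 20 were highest on the LNA-miR-197 array in every line, 23 in A549, 26 in PC14 and 29 in PC14CDDP. Taking the lines as A549, PC14 and PC14CDDP, their median log2 ratios were 0.48, 0.66 and 1.36. These counts and medians describe members called for higher LNA-miR-197 arrays and are no separate support. SNORA33, in RPS12, had a mean ratio of 1.28 without passing the test (adjusted p = 0.0871). The other probe of that name lies on the opposite strand and does not read SNORA33.

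**Figure D2:**
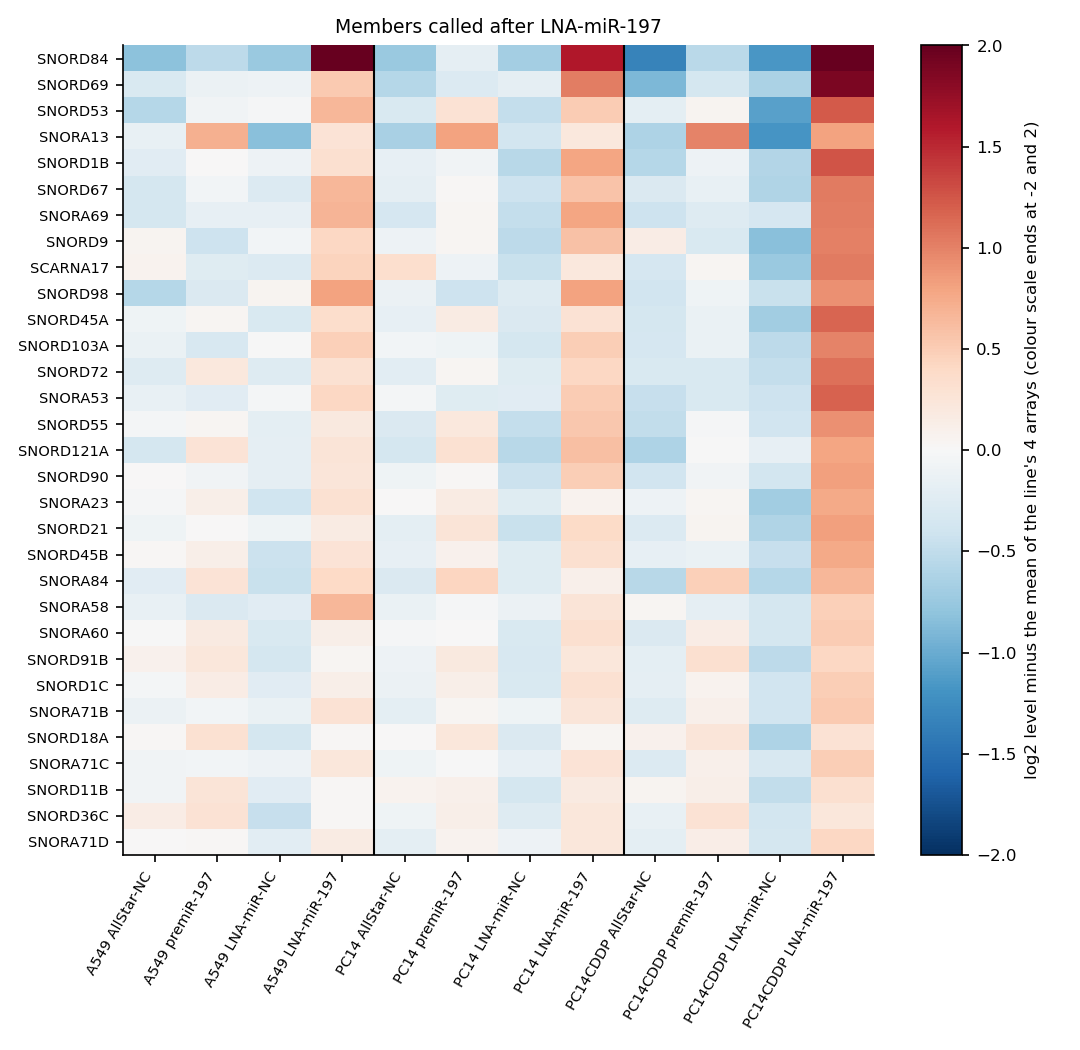
The 31 members called after LNA-miR-197 (rows, by falling log2 ratio) on the 12 arrays (columns, grouped by line), coloured by log2 level minus the mean of the line's 4 arrays; the colour scale ends at -2 and 2. The LNA-miR-197 column is the highest of its line for 23 members in A549, 26 in PC14 and 29 in PC14CDDP.

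Lower after LNA-miR-197 in all 3 lines, without passing the test, were SNORD107, SNORD109B and SNORD108, which lie in SNHG14 on 15q11. Their mean log2 ratios were -0.48, -0.43 and -0.33, with adjusted p between 0.186 and 0.272 (limma). SCARNA12, in PHB2, had -0.29 and SNORD51, in EEF1B2, -0.13.

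SNORD44, in GAS5, had levels of -1.04, -0.95, -1.17 and -1.25 after AllStar-NC, premiR-197, LNA-miR-NC and LNA-miR-197 in A549. In the same order its levels were -1.10, -1.04, -1.09 and -0.71 in PC14, and -0.32, -0.06, -0.35 and 0.59 in PC14CDDP. The PC14CDDP LNA-miR-197 array was thus its highest. The log2 ratio after premiR-197 was 0.14 (SE 0.20, adjusted p = 0.796), and that after LNA-miR-197 was 0.42 (adjusted p = 0.224), neither called by limma.

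The premiR-197 and LNA-miR-197 contrasts share no array. Of the 33 members at least 1.2-fold higher after premiR-197 in all lines, 15 (45.5%) were also so after LNA-miR-197. The 15 were 19.7% of the 76, and 12 of them were box H/ACA. The same overlap over all genes was not counted, so the share cannot be called particular to the members. limma called 0 members for a difference between the contrasts, where 0.133% of all genes were called. At an unadjusted p under 0.05 were 46 of 297 members and 4464 of 24860 genes, a smaller share for members than for genes. SNORD84 had a difference of -2.56 (SE 0.51, adjusted p = 0.0882) and SNORA63 of 0.71 (SE 0.50, adjusted p = 0.496).

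**Figure D3:**
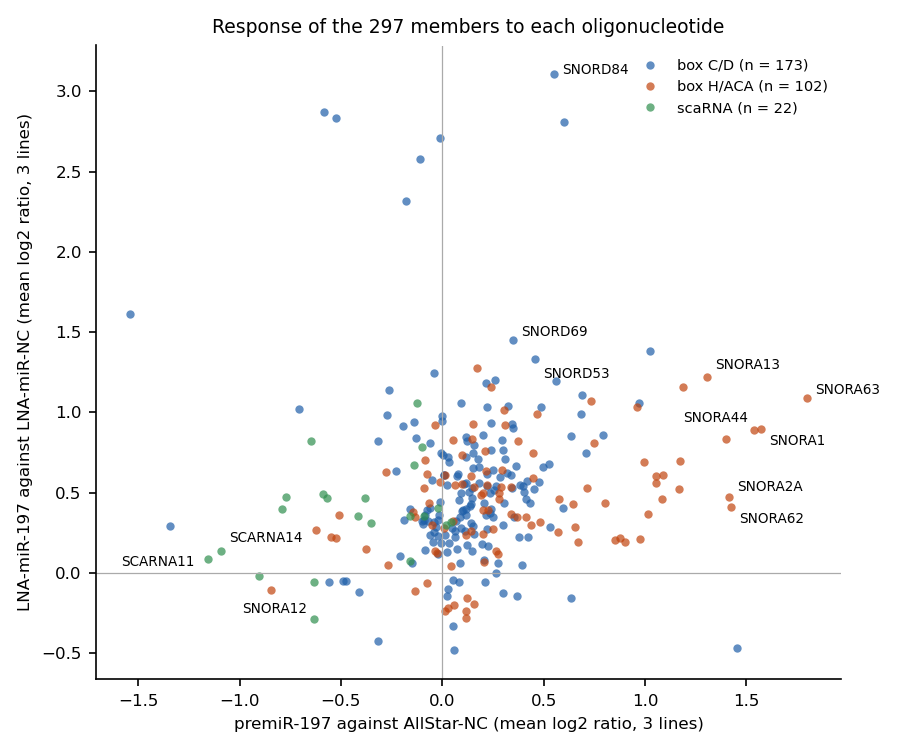
Mean log2 ratio over the 3 lines after premiR-197 (x axis) and after LNA-miR-197 (y axis) for the 297 members, coloured by class. SNORD84 lies at 0.55 and 3.11, SNORA63 at 1.80 and 1.09, and SCARNA11 at -1.16 and 0.08; the unnamed points above 2 are SNORD115 and SNORD114 copies near background in some lines.

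The controls were compared with each other, since each contrast rests on its own. LNA-miR-NC against AllStar-NC had 0 members called by limma, where 0.664% of all genes were called. At an unadjusted p under 0.05 were 32 of 297 members and 3493 of 24860 genes, a smaller share for members than for genes. The members' median log2 ratio was -0.17, with -0.52 over scaRNAs, against -0.05 over all genes, and this contrast shares its arrays with those above. At least 1.2-fold lower in all lines were 25 members (8.42%), 8 of them scaRNAs, against 4.62% of all genes, and 0 members were so higher, against 4.49% of all genes. SCARNA14 had log2 ratios of -1.83, -0.22 and -0.85, and SCARNA20, in USP32, a mean of -0.80. On the other side SNORD111 had a mean of 0.50 and SNORD51 of 0.38, neither called.

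Box H/ACA and box C/D members were compared by the difference of their medians within each line, with no test. After premiR-197 the A549, PC14 and PC14CDDP values were 0.08, 0.25 and 0.07, averaging 0.13 ± 0.10 (SD over 3 lines), with box H/ACA the higher class in each. After LNA-miR-197 it was 0.21, -0.15 and 0.02, a mean of 0.03 ± 0.18, and for LNA-miR-NC against AllStar-NC -0.18, 0.18 and -0.08, a mean of -0.03 ± 0.19. In these last comparisons the spread between lines exceeded the mean.

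More members were called between lines than between transfections, and the same held for all genes, so this is not particular to the members. In PC14CDDP against PC14, limma called 58 members higher (19.5%) and 101 lower, where 25.6% of all genes were called higher and 22.9% lower. The share called higher was smaller for members than for genes, and the share called lower was larger. Lower were 17 of 22 scaRNAs, 49 of 102 box H/ACA and 35 of 173 box C/D members. The median log2 difference was -1.80 over scaRNAs, -0.42 over box H/ACA and -0.03 over box C/D members, against 0.05 over all genes, and the box C/D median turned to 0.05 under normexp background correction. These arrays lay on the same slide.

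SCARNA11 stood at 1.77, -0.04, 1.32 and 0.86 after AllStar-NC, premiR-197, LNA-miR-NC and LNA-miR-197 in PC14, and at -1.78, -3.09, -2.44 and -2.40 in PC14CDDP. The groups did not overlap, and the log2 difference was -3.40 (SE 0.29, adjusted p = 4.15e-05, limma), whereas its host CHD4 differed by -0.17 (SE 0.07, adjusted p = 0.0892). SCARNA16, in SEC14L1, had line means of 4.52 ± 0.39 (PC14) and 1.69 ± 0.43 (PC14CDDP), as SD over 4 arrays each. SCARNA2 had 0.54 ± 0.37 and -2.36 ± 0.42, and for both the arrays of the lines did not overlap. SCARNA23, in POLA1, and SCARNA14 fell by 3.05 and 2.91 on the log2 scale. Of the 22 scaRNAs, 16 had their highest line mean in PC14, beside 60 of 102 box H/ACA and 73 of 173 box C/D members. The share over all genes is not given here.

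Higher in PC14CDDP was SNORA24, in SNHG8, at 2.98, 2.54, 2.59 and 2.93 against 1.02, 2.31, 1.09 and 1.35 in PC14 (log2 difference 1.32, adjusted p = 0.00231), and SNHG8 differed by 1.40 as well. SNORA65, in RPL12, rose by 1.10 on the log2 scale, SNORD50B, in SNHG5, by 1.02 and SNORD75, in GAS5, by 0.96. SNORD44, from the same host GAS5, rose by 0.95 (SE 0.17, adjusted p = 0.00215), and GAS5 itself by 0.86. SNORD113-5 was well above background on 1 of 4 PC14CDDP and 0 of 4 PC14 arrays, so no fold is given for it.

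In A549 against PC14, limma called 42 members higher (14.1%) and 166 lower (55.9%), where 36.1% of all genes were called higher and 32.1% lower. The median log2 difference was -0.97 over scaRNAs, -0.78 over box H/ACA and -0.37 over box C/D members, against 0.09 over all genes. All 25 members of the imprinted cluster on 14q32, the SNORD113 and SNORD114 copies within MEG8, were higher, and all 19 members on 15q11, the SNORD115, SNORD116 and neighbouring genes, 18 of them within SNHG14, were lower. The filter itself largely set the direction on 14q32, since most 14q32 members passed it through the A549 arrays. On 15q11 it did so for the 7 members that had no A549 array above background. The other 12 members on 15q11 were well above background on all 4 A549 arrays. Of the 254 members well above background on all 12 arrays, 15 were higher and 156 lower. The share called among all genes under that limit is not given here, so this count cannot be called particular to the members. Without both clusters 17 members were higher and 147 lower, a count added once results were known.

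The 14q32 copies are shown by SNORD114-23 (chr14:101450221-101450280, plus strand) and SNORD114-21 (chr14:101448318-101448377, plus strand), and those of 15q11 by SNORD115-1 (chr15:25444617-25444676, plus strand) and SNORD115-5 (chr15:25434583-25434642, plus strand), since capitals mark the longest run each pair shares, 25 and 56 bases.
SNORD114-23: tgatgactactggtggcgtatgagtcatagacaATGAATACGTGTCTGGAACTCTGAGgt
SNORD114-21: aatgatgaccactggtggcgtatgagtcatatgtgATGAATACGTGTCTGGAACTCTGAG
SNORD115-1: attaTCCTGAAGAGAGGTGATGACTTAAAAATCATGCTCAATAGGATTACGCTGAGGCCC
SNORD115-5: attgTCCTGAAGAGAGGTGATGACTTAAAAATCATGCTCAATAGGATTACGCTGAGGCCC

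SNORD114-23 stood at -0.16, -0.17, -0.82 and -0.35 in A549, and at -7.47, -7.51, -7.39 and -6.54 in PC14, where 0 of 4 arrays put it well above background. It was at least 43.2-fold higher in A549 (fitted log2 difference 6.85). This bound sets the mean A549 level against the lowest signal well above background on the PC14 arrays. SNORD114-23 passed the filter through the A549 arrays alone, so its direction was set in advance and no p-value is given. SNORD114-28, SNORD114-20 and SNORD114-22 were at least 35.7, 30.7 and 30.3-fold higher, and SNORD114-21 was well above background on 5 of 12 arrays. In PC14CDDP the SNORD114-23 levels lay between -7.56 and -7.05. Of the 25 members 23 were well above background on all 4 A549 arrays, and 20 on no PC14 array and 21 on no PC14CDDP array. Because 16 of the 25 share 20 bases or more, the copies do not count as separate evidence. The host MEG8 was higher as well, by 2.91 (SE 0.18).

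SNORD115-1 was well above background on 0 of 4 A549 arrays, with levels between -7.72 and -7.65. In PC14 it stood at -3.78, -5.37, -4.05 and -1.53 after AllStar-NC, premiR-197, LNA-miR-NC and LNA-miR-197, and in PC14CDDP at -7.38, -6.34, -5.28 and -0.92. The LNA-miR-197 array was the highest of both lines. SNORD115-1 was at least 3.87-fold lower in A549 than in PC14, and SNORD115-5 and SNORD115-4 at least 3.91 and 3.66-fold lower. Without the LNA-miR-197 arrays, left out once results were known, these bounds were 2.41, 2.35 and 2.24-fold. limma called all 3 in the main fit, but they passed the filter through the other lines, so their direction was set in advance. Under normexp background correction limma called none of the 3 (adjusted p = 0.0633, 0.0748 and 0.0881). After LNA-miR-197 against LNA-miR-NC SNORD115-5 had log2 ratios of 0.42, 2.75 and 5.34 in A549, PC14 and PC14CDDP. The mean of 2.83 did not pass the test (adjusted p = 0.0877, limma). Its A549 levels, between -7.65 and -7.23, were below the lowest signal well above background, as was its lowest PC14CDDP level of -6.00. The ratios of these lines and the mean thus depend on the floor and are no bound. SNORA44 and SCARNA2 fell by 3.57 and 3.53 on the log2 scale in A549 and were well above background on all 12 arrays.

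**Figure D4:**
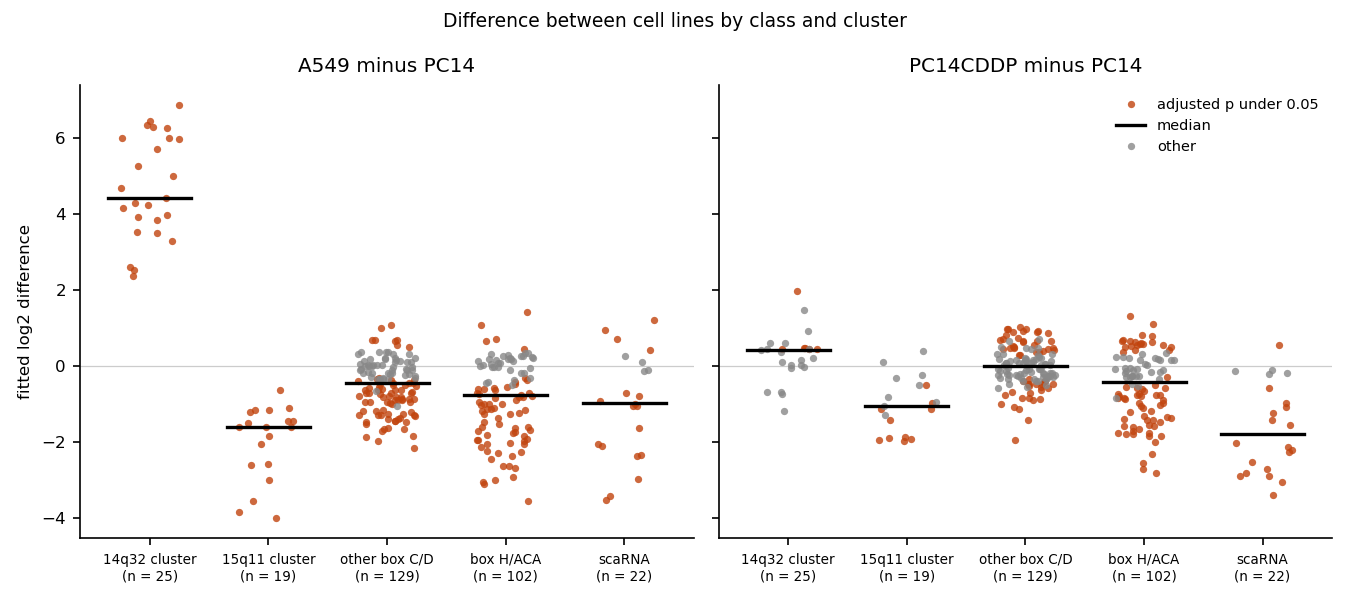
Fitted log2 difference of each member (points) in A549 minus PC14 and PC14CDDP minus PC14, by class and cluster, with the median as a black bar and called members in red. The 14q32 median was 4.40 in A549 minus PC14 and the scaRNA median -1.80 in PC14CDDP minus PC14; differences against a line near background depend on the floor and are no bound.

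Members were then set beside the host gene whose span holds them. A host was found by coordinates for all but 7 members and was itself measured for 229 members, in 127 hosts. After LNA-miR-197 the median log2 ratio was 0.46 over the members of these pairs and 0.08 over their hosts, and 178 of 229 members lay above their host. Of the 24 called members with a measured host, 3 had a host called higher. The host ratios of these 24 pairs, in which a shared host counts once per member, had a median of 0.06. Across the 229 pairs, which share hosts and arrays, member and host ratios correlated at -0.02 for premiR-197 and 0.02 for LNA-miR-197 (Pearson's r, a description). In A549 against PC14 it was 0.83, and 0.36 over the 204 pairs outside 14q32.

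The ratios of members of 1 host are given as ranges, and differences within a host were not tested. In TAF1D the 7 members ranged from 0.20 (SNORD6) to 1.57 (SNORA1) after premiR-197, while TAF1D had -0.03. In SNHG12 the 4 members ranged from -0.01 (SNORA16A) to 1.54 (SNORA44). In GAS5 the 8 members ranged from 0.33 (SNORD47) to 0.99 (SNORD74) after LNA-miR-197, with GAS5 at 0.40. No member of TAF1D, SNHG12 or GAS5 was called in these transfection comparisons. In PC14CDDP against PC14, 6 of the 8 GAS5 members were called higher, while SNORD74 had -0.48 and was not called. In SNHG1 the 8 members had a median of 0.28 after LNA-miR-197 and SNHG1 0.81, none of them called.

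**Figure D5:**
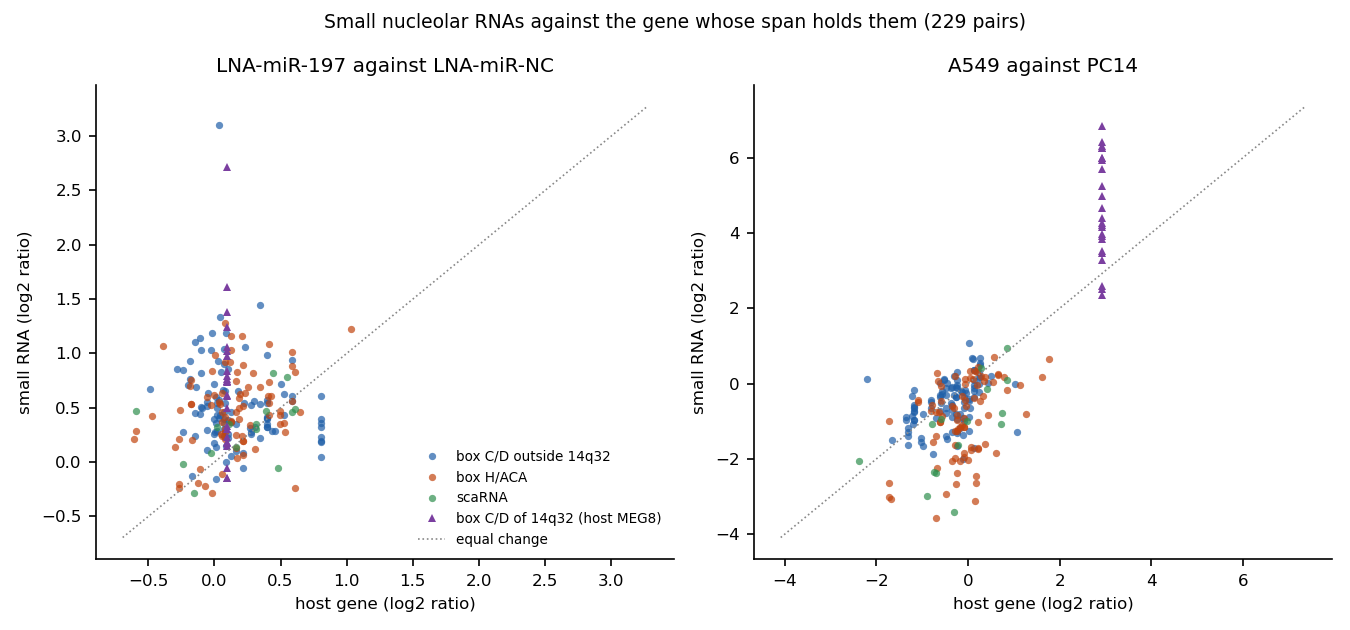
Log2 ratio of 229 members (y axis) against that of the host gene (x axis) after LNA-miR-197 and in A549 against PC14, coloured by class, with the 14q32 members (host MEG8) as triangles and a dotted line of equal change. After LNA-miR-197 178 of 229 members lie above their host.

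The protein partners were read as lists. After premiR-197 0 of 4 box C/D core proteins (fibrillarin and its partners) and 0 of 6 box H/ACA core proteins (dyskerin and its partners) were called, with median log2 ratios of 0.30 and 0.10, and after LNA-miR-197 again 0 of each, with 0.11 and 0.18. Where 4.1% of all genes were called higher and 3.58% lower after LNA-miR-197, of 9 Cajal body, cap and nucleolar factors 2 were called higher, of 11 intron release and small RNA decay factors 0, of 8 assembly factors 0 and of 7 nonsense-mediated decay factors 2. Of 14 noncoding host genes 2 were called higher after LNA-miR-197, with a median log2 ratio of 0.35 that was -0.07 for A549, 0.56 for PC14 and 0.76 for PC14CDDP. In PC14CDDP against PC14, 5 of 6 box H/ACA core proteins were called higher and 0 lower, and of 4 box C/D core proteins 1 was higher and 1 lower (median -0.09), where 25.6% of all genes were higher and 22.9% lower.

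The members just inside the filter, well above background on 3 arrays, were SNORA35, SNORD114-30 and SNORD115-3, with mean levels of -6.05, -6.33 and -6.02. Just outside it, on 2 arrays, were SNORD114-16 and 5 SNORD115 copies, with mean levels from -6.93 to -6.34. Of the 24 names not kept, 9 were SNORD114, 7 SNORD115 and 3 SNORD113 copies.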

How the data were processed

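Total RNA of 12 transfections (3 lines, 4 oligonucleotides) was labelled with 1 dye and hybridised to Agilent arrays. Per the file headers, the authors deposited an intensity per spot from Agilent Feature Extraction 10.7.3.1: the mean and a processed signal, corrected for spatial trend, with no scaling across arrays. Their table equals the processed signal on every spot, and 0 columns belonged to other samples. Array names came from the files, whose build is hg19; 321 of 355 member probes matched RefSeq (GRCh38.p14) by accession, 31 by symbol and 3 by synonym, and host genes come from that table.

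Control and outlier spots were dropped, spots of a probe averaged, and log2 signal taken minus the log2 of the array's 75th percentile. Probes with a missing value (106) or well above background on fewer than 3 arrays were left out, and the brightest probe stood for its gene. One model of transfection plus cell line was fitted over the 12 arrays (limma 3.58.1, R 4.3.3) with 6 residual degrees of freedom and Benjamini-Hochberg adjustment over 24860 genes. The study's methods name Student's t-test in general and no normalization for these arrays. The cell line pairs arrays: deviations correlated at 0.848 to 0.949 between arrays of a line. P-values cover only the spread between these arrays. Named members were those called after an oligonucleotide (the 12 largest), the 5 largest mean changes in each direction that kept their sign in all lines and were well above background on at least 9 arrays, the 5 largest called differences between lines, and SNORD44, SNORA63, SNORA1 and SNORD84. The members and lists were chosen with earlier results of these data known. The fit was tested on simulated data. No array shows depth in reads: the number of arrays limits the precision. One marker gene is not reported here.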

Additional observations from a re-analysis of the deposited data

Results flagged for a closer look

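Within the 4 arrays of a line, 1 array stood apart by Dixon's 95% criterion in 8 of 66 sets of levels examined, where chance gives about 1 in 20. On the log2 scale of levels, SNORD115-5 stood at -0.66 on the PC14CDDP LNA-miR-197 array, with a median of -5.66 on the other 3 arrays. On the PC14 LNA-miR-197 array SNORD114-20 stood at -6.33, SNORD114-22 at -5.87 and SNORD114-23 at -6.54, against medians of -7.43, -7.61 and -7.47, and these probes share bases. SNORD114-20 stood at -7.55 on the PC14CDDP LNA-miR-NC array, SNORD115-4 at -7.04 on the A549 premiR-197 array and SNORD115-5 at -7.23 on the A549 LNA-miR-197 array, all in lines where these copies were near background. SNORD75 stood at -3.04 on the A549 LNA-miR-NC array, with a median of -2.58 on the other 3.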

How the results depend on the processing

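The 31 members called after LNA-miR-197 became 55 under normexp background correction with offset 50, 63 with probes well above background on all 12 arrays, 62 with a trended robust prior and 4 with no filter on dim probes. They became 1 with slide in place of the line, and 0 when other arrays were left out of the fit, with the methods' t-test after Benjamini-Hochberg (15 at an unadjusted p under 0.05) and without the replicate block that pairs arrays of a line. Each of the 3 fits without a replicate (A549, PC14 or PC14CDDP) gave 0. The cause was not tested. Of the 31, 29 were among the 63, 25 among the 55 and 31 among the 62. After premiR-197 the count of 0 became 18 (normexp), 13 (all 12 arrays) and 14 (trended prior), and for the difference between contrasts 4, 3 and 3. The methods' t-test gave 0 in both after adjustment, and 2 and 26 before. For LNA-miR-NC against AllStar-NC the mean of a gene's probes gave 1. In PC14CDDP against PC14 the methods' t-test gave 75 in place of 159 members, and fits without 1 transfection gave 120 to 169. In A549 against PC14 they gave 189 to 207 against 208, and SNORD115-1, SNORD115-5 and SNORD115-4 lost their call under normexp. The premiR-197 count stayed at 0 without the block. The difference between class medians stayed within 1 SD over lines under every alternative run. Quantile normalization and the deposited table kept all counts within 1.5 times. Probes near background limit the cluster members most. The counts in this section stand without the share of all genes called under the same setting. They do not show whether members changed more than other genes did.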
